A study of Mus musculus with 3 samples.

Results

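Granzymes, perforin and the granule membrane protein Nkg7 were followed in peripheral blood mononuclear cells (PBMCs) of young mice, aged mice and aged mice given glycyrrhizic acid (GA), a triterpenoid saponin of licorice root. The 6 members, Gzma, Gzmb, Gzmk, Gzmm, Prf1 and Nkg7, were taken by gene symbol from the 32285 genes of the count tables, and each had unique molecular identifiers (UMIs, 1 for each captured transcript molecule) in all 3 libraries. All mice were C57BL/6 females. The young mice were 8 weeks old and purchased, and the aged mice were 16 months old and came from a laboratory-reared reserve. The aged-GA mice were of the same age and received GA by tail vein every other day for 1 month, while the labels list no treatment for the other groups and the methods describe saline injections for controls. Each group was 1 library, made with a 3′ droplet kit, and how the blood of several mice was brought together was not given in the sources used here. No value therefore has a replicate, no test between groups was possible, and differences between mice, between preparations and between groups cannot be told apart. The 95% intervals below cover counting error only.

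Cytotoxic lymphocytes kill by releasing granules onto a target cell. Perforin, encoded by Prf1, forms pores in the target membrane, and granzymes, a family of serine proteases, enter through them. Granzyme B cleaves after aspartate and activates caspases, granzyme A and granzyme K cleave after basic residues, and granzyme M prefers methionine or leucine. Nkg7 is a membrane protein of the same granules that takes part in their release. In mouse blood such granules are best known from natural killer (NK) cells and from effector CD8 T cells, whereas naive T cells and B cells lack them.

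The members lie on 4 chromosomes of the mm10 genome, and the part upstream of each RefSeq start is shown because these 6 genes are the objects of every comparison. Gzma lies on the minus strand at chr13:113093824-113100981. Gzmk lies on the same strand at chr13:113171630-113180965, 70.6 kb away, with 0 protein-coding genes between them. Gzmb is on the minus strand at chr14:56258836-56262334. Gzmm is on the plus strand at chr10:79689020-79695261 and Prf1 on the plus strand at chr10:61297751-61304684. Nkg7 is on the plus strand at chr7:43437138-43438246. The first listed transcript has 5 exons for each granzyme, 2 for Prf1 and 4 for Nkg7. Of these loci, Gzmk alone has an annotated span that overlaps another gene, Esm1, which lies on the opposite strand. Capitals mark TGTGGT or its reverse complement ACCACA, letters that Runx factors are known to bind, and GGTGTGA or TCACACC, letters of T-box factors such as T-bet and Eomes. The sequences are from RefSeq (GRCm38.p6, the assembly behind mm10), 5′ to 3′ on the strand of the gene, and leave out any base that an annotated exon covers.
Prf1, chr10:61297586-61297750, plus strand: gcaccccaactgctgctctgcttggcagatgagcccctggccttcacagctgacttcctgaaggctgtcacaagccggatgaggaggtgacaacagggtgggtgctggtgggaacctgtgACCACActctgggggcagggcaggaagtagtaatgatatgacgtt
Gzma, chr13:113100982-113101231, minus strand: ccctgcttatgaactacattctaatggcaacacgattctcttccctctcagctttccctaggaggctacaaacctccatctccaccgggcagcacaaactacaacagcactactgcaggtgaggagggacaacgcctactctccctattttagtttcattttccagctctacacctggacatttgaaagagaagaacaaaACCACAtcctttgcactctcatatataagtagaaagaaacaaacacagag
Gzmb, chr14:56262335-56262584, minus strand: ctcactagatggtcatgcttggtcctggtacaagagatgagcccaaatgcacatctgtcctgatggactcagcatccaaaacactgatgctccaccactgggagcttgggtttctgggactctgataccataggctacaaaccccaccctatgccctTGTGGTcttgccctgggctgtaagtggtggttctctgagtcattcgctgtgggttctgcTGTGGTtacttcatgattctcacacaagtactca
Gzmk, chr13:113180966-113181215, minus strand: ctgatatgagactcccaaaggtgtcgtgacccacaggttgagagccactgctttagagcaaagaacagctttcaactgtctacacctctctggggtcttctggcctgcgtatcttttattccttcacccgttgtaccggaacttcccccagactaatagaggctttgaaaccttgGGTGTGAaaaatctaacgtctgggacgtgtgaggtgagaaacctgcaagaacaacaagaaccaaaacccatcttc
Gzmm, chr10:79688770-79689019, plus strand: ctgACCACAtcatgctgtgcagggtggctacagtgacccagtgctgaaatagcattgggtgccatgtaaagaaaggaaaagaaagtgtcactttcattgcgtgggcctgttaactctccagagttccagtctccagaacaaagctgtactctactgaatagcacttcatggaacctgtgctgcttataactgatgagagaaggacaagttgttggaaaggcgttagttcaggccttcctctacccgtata
Nkg7, chr7:43436888-43437072, plus strand: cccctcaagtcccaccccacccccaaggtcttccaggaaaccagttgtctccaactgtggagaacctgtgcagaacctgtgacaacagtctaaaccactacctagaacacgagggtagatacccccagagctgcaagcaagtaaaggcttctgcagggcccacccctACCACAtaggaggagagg

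The Runx letters were found in the 250 bases before the start of 5 members, on either strand: Gzma, Prf1, Nkg7 and the first of 2 Gzmm starts held 1 match each, and Gzmb held 2. The Gzmk window held none of them but held the T-box letters, 69 to 75 bases before its start. The T-box letters were also found in the Nkg7 window, in a part not printed because an annotated exon covers it, and before the second Gzmm start. Over all 32851 promoter windows of this length, 14% held the Runx letters, 3.33% the T-box letters and 0.609% both. A match describes these letters only and is not a bound site, and the letters were chosen with results of these data known.

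Cells were classed by marker genes other than the members. Of the kept cells, the NK gate held 319 (young), 261 (aged) and 259 (aged-GA), that is 3.60%, 2.55% and 2.05% of 8851, 10238 and 12648. The CD8 T gate held 1997, 853 and 1676 cells, and the CD4 T gate 1016, 536 and 740. The median depth of a kept cell was 4671, 3810.5 and 4752 UMIs. In the NK class, all 8 NK markers that the gate did not use (among them Klrd1, Il2rb and Tyrobp) had UMIs in each library, with a summed level of 9913 to 10434 counts per 1000000 UMIs of the class (CPM). Of the marker lists for other cell types, in young, aged and aged-GA NK cells, the CD8 T list summed to 607, 633 and 699 CPM, most of it Trbc2 and Lck, the B list to 345, 478 and 420.4 CPM, led by Cd37, and the myeloid list to 925, 895 and 1098 CPM, led by Ly6c2. The plasmacytoid dendritic list stood at 44.8, 97.2 and 47.9 CPM, all of it Bst2 with Siglech and Ccr9 at 0, the cycling list at 140.2, 396 and 256 CPM, and the basophil and platelet lists at or below 18.1 CPM with Mcpt8 at 0. The part of these transcripts in the NK results was not tested. The libraries shared 50 to 62 barcodes in pairs, of which 24 to 34 were kept cells, and leaving these out is among the alternatives tried.

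B cells, which lack cytotoxic granules, gave the background of free RNA. B cells under 2 NK marker UMIs, the set used below, had a Gzma level of 6.51 (young), 9.96 (aged) and 8.86 (aged-GA) CPM. Their Nkg7 level was 3.49 (young), 8.13 (aged) and 10.7 (aged-GA) CPM, and that of the other members lay between 0 and 2.61 CPM. Of the 56 Gzma UMIs of this set in young, 1 cell held 37.5%. The few B-gated cells with 2 or more NK marker UMIs (15, 25 and 23 cells) held Gzma at 8555 (young), 6519 (aged) and 7028 (aged-GA) CPM. These cells carried the genes of both types, and their median depth, 6616 to 8061 UMIs, stood above the 3058 to 3750 of the other B cells. Levels in B, haemoglobin-rich, mixed and ungated cells are therefore not read as expression by those cells.

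NK cells held the largest share of Gzma, Gzmb and Prf1 transcripts of any class in each library. The NK level of Gzma was 16078 (95% interval 15836 to 16323) CPM in young, 14286 (95% interval 14045 to 14531) CPM in aged and 13637 (95% interval 13402 to 13875) CPM in aged-GA. Gzma was the highest member in this class in each library. Nkg7 stood at 4461 (young), 4132 (aged) and 4044 (aged-GA) CPM, Gzmb at 1742 (young), 1162 (aged) and 1454 (aged-GA) CPM, and Prf1 at 1272 (young), 870.2 (aged) and 1087 (aged-GA) CPM. Since a 3′ kit gives 1 UMI for each captured molecule whatever its length, these levels can be set side by side, but how well each transcript is captured was not tested. The intervals of neighbours in this order, Gzma, Nkg7, Gzmb and Prf1, did not overlap in any library.

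Gzmk and Gzmm were low in NK cells. The whole NK class held 2, 3 and 5 UMIs of Gzmk and 14, 12 and 15 of Gzmm in young, aged and aged-GA. In young, NK and CD8 T levels overlapped, at 13.3 and 12.8 CPM for Gzmm and 1.91 and 2.26 CPM for Gzmk. In aged and aged-GA both genes were higher in CD8 T cells, with no overlap of intervals. For each of these genes the CD8 T class held the largest share: 59.6%, 66.6% and 70.3% of all Gzmm UMIs in kept cells, and 50.9%, 41.8% and 47.2% of those of Gzmk. NK cells held 77.0%, 60.2% and 61.8% of the Gzma UMIs and 76.5%, 46.9% and 52.5% of those of Gzmb. Their share of Prf1 UMIs was 61.7%, 48.8% and 41.1%. Nkg7 was divided, with 35.1%, 23.2% and 14.5% in NK cells and 44.0%, 40.3% and 49.5% in CD8 T cells. These shares move with the number of cells in each class, and CD8 T cells made up 22.6%, 8.33% and 13.3% of kept cells.

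**Figure D1:**
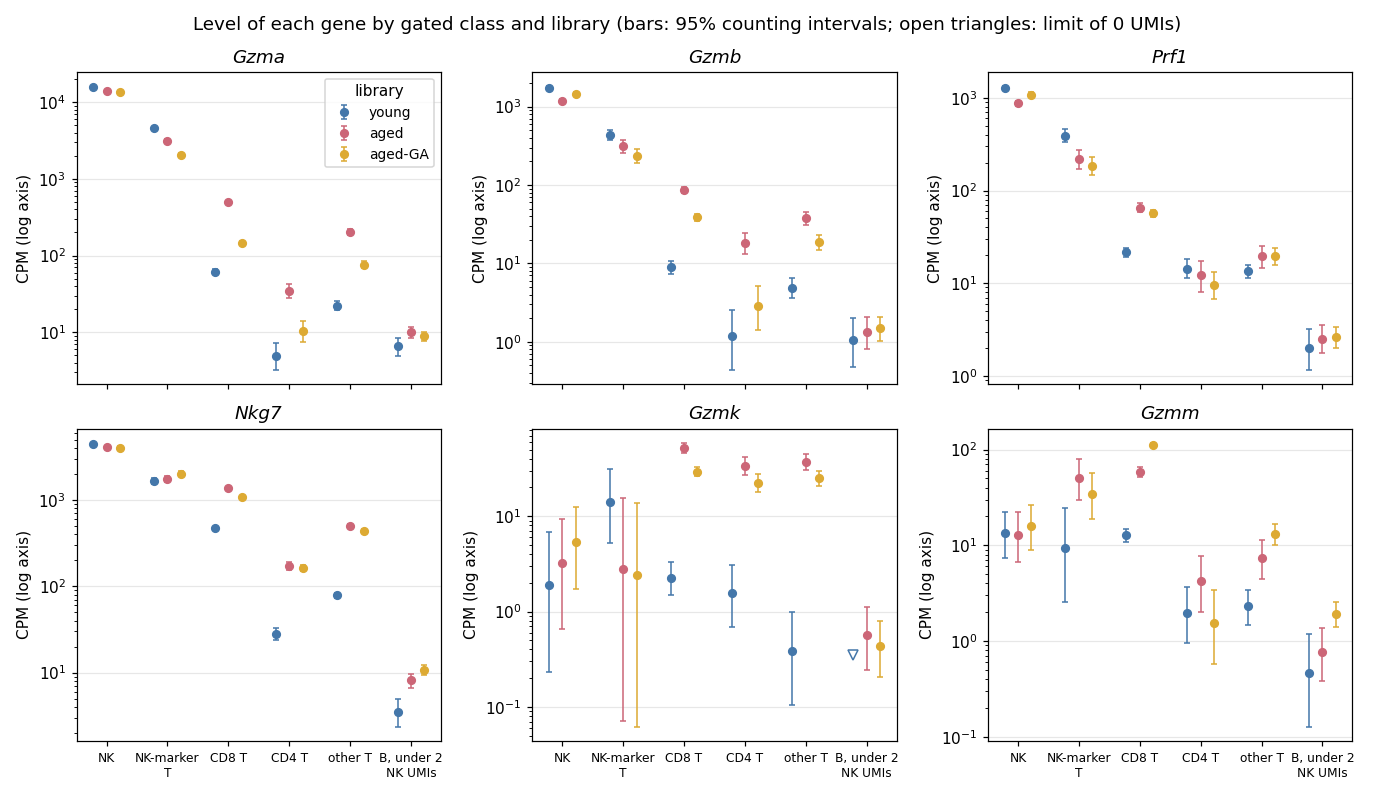
Level of each member (CPM of the class, log scale) in gated classes of the young, aged and aged-GA libraries, with bars for the 95% Poisson interval, which covers counting error only. Gzma, Gzmb and Prf1 are highest in NK cells in each library, while Gzmm stands at 13.3 to 16.0 CPM in NK cells and at 12.8 to 112 CPM in CD8 T cells.

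**Figure D2:**
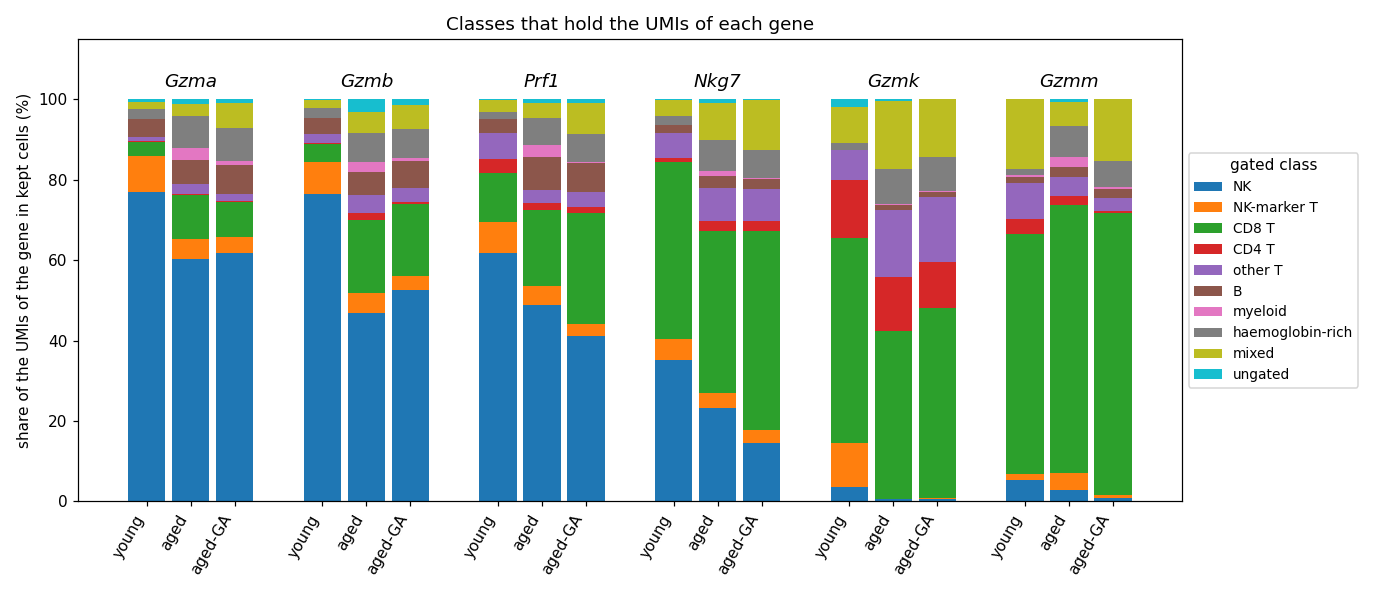
Percent of the UMIs of each member, over all kept cells of a library, that lay in each gated class, with 1 bar for each library. NK cells hold 60.2 to 77.0% of Gzma, and CD8 T cells hold 59.6 to 70.3% of Gzmm.

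In NK cells the 4 members with at least 100 UMIs, Gzma, Gzmb, Prf1 and Nkg7, differed by less than 2-fold between libraries. Aged over young, the log2 ratio of levels was -0.17 (95% interval -0.20 to -0.14) for Gzma and -0.11 (95% interval -0.17 to -0.05) for Nkg7, against -0.58 (95% interval -0.69 to -0.48) for Gzmb and -0.55 (95% interval -0.67 to -0.42) for Prf1. All 4 were lower in aged. Aged-GA over aged, a comparison that shares the aged library with the first, Gzmb stood at 0.32 (95% interval 0.21 to 0.44) and Prf1 at 0.32 (95% interval 0.19 to 0.46), both higher, while Gzma was at -0.07 (95% interval -0.10 to -0.03) and Nkg7 at -0.03 (95% interval -0.10 to 0.03). Of these 4, 0 were at least 2-fold higher and 0 lower in aged than in young, where 2.17% of all genes with that many UMIs were at least 2-fold higher and 0.916% at least 2-fold lower. The count was also 0 and 0 in aged-GA over aged (all genes 0.102% and 0.545%) and in aged-GA over young (all genes 1.35% and 0.71%).

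By the share of UMIs in the top 10% of cells, Gzma was spread over NK cells more evenly than Gzmb. The median NK cell had a Gzma level of 16067, 14609 and 12669 CPM of its own UMIs in young, aged and aged-GA, with quartiles of 8181 and 19471 CPM in aged. At least 10 Gzma UMIs were present in 93.7%, 85.8% and 90% of NK cells. For Gzmb, the median was 1218, 875 and 1103 CPM, and the top 10% of cells held 39.0%, 38.8% and 37.4% of its UMIs, against 21.9%, 29.0% and 25.1% for Gzma. For Prf1 that share was 29.7%, 28.2% and 31.9%. An NK cell with the gene held a mean of 53.9, 54.8 and 50.1 UMIs of Gzma but 6.41, 5.41 and 6.47 of Gzmb. Fewer UMIs in a cell can alone raise such a share, and the part of this was not tested.

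NK cells with a UMI of Cd27, a marker of less mature mouse NK cells, had less Gzma, Gzmb and Prf1 than NK cells with Itgam or Klrg1 and no Cd27. The first set held 31, 29 and 30 cells and the second 166, 173 and 175. The Gzma level of cells with Cd27 was 11391 (young), 9519 (aged) and 7597 (aged-GA) CPM, against 17122 (young), 16839.5 (aged) and 15732 (aged-GA) in the other set. For Gzmb the values were 1123, 736 and 505 CPM with Cd27 and 1838, 1387 and 1723 CPM without. For Prf1 they were 898, 580.1 and 584 CPM against 1317, 988 and 1265. The order was the same in each library for each of these 3 genes.

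In CD8 T cells all 6 members were more than 2-fold higher in aged than in young. Gzma was at 61.4 (95% interval 57.1 to 66.0) CPM in young, 493 (95% interval 474 to 513) CPM in aged and 147 (95% interval 140.4 to 154) CPM in aged-GA. Gzmb was at 8.89 (young), 86.7 (aged) and 38.5 (aged-GA) CPM, and Gzmk at 2.26 (young), 52.0 (aged) and 29.3 (aged-GA) CPM. Both were lowest in young and highest in aged, with no overlap of intervals between libraries. Prf1 was at 21.5 (95% interval 19.0 to 24.2), 65.1 (95% interval 58.2 to 72.7) and 56.6 (95% interval 52.4 to 61.0) CPM, so that aged and aged-GA overlapped. Nkg7 was at 474 (young), 1380.5 (aged) and 1072 (aged-GA) CPM. Gzmm alone was highest in aged-GA, at 112 (95% interval 106 to 118) CPM, against 58.4 (95% interval 51.8 to 65.6) in aged and 12.8 (95% interval 10.9 to 14.9) in young. The median share of mitochondrial UMIs in these cells was 5.04%, 3.05% and 4.34% in young, aged and aged-GA, and the 3 cycling markers (Mki67, Top2a and Stmn1), each in the same order of libraries as Gzma, summed to 51.2, 154 and 84.5 CPM. Their part in the result was not tested.

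Aged over young, the log2 ratio in CD8 T cells was 4.52 (95% interval 3.96 to 5.14) for Gzmk, 3.28 (95% interval 2.98 to 3.60) for Gzmb and 3.01 (95% interval 2.89 to 3.13) for Gzma. It was 2.19 (95% interval 1.91 to 2.48) for Gzmm, 1.60 (95% interval 1.36 to 1.84) for Prf1 and 1.54 (95% interval 1.49 to 1.59) for Nkg7. The median over all genes with at least 100 UMIs was 0.33 on the same scale, and each member stood above it. At least 2-fold higher were 6 of 6 members and 8.1% of all such genes, and at least 2-fold lower were 0 members and 0.999%.

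Aged-GA over aged, 2 members were at least 2-fold lower in CD8 T cells and 0 higher, where 0.506% of all genes were 2-fold lower and 0.0864% higher. These were Gzma, with a log2 ratio of -1.74 (95% interval -1.83 to -1.66), and Gzmb, with -1.17 (95% interval -1.36 to -0.98). Gzmk was at -0.83 (95% interval -1.07 to -0.59), Nkg7 at -0.37 (95% interval -0.41 to -0.32) and Prf1 at -0.20 (95% interval -0.40 to -0.01). Gzmm went the other way, at 0.93 (95% interval 0.75 to 1.12), or 1.91-fold higher, just inside the 2-fold line. Aged-GA over young, all 6 members were at least 2-fold higher and 0 lower, against 6.07% and 0.984% of all genes. The ratios there ran from 1.18 for Nkg7 and 1.26 for Gzma to 3.13 for Gzmm and 3.69 for Gzmk, with a median of 0.28 over all genes. With that median set to 0 the count of 6 became 4, as Gzma stood at 0.98 and Nkg7 at 0.90, and without T cells with 2 NK marker UMIs it became 5, with Gzma at 0.81. It was also 5 with each cell thinned to 1000 UMIs, where 1 member had under 100 UMIs. The first comparison and this one share the young library, and neither is independent of aged-GA over aged.

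**Figure D3:**
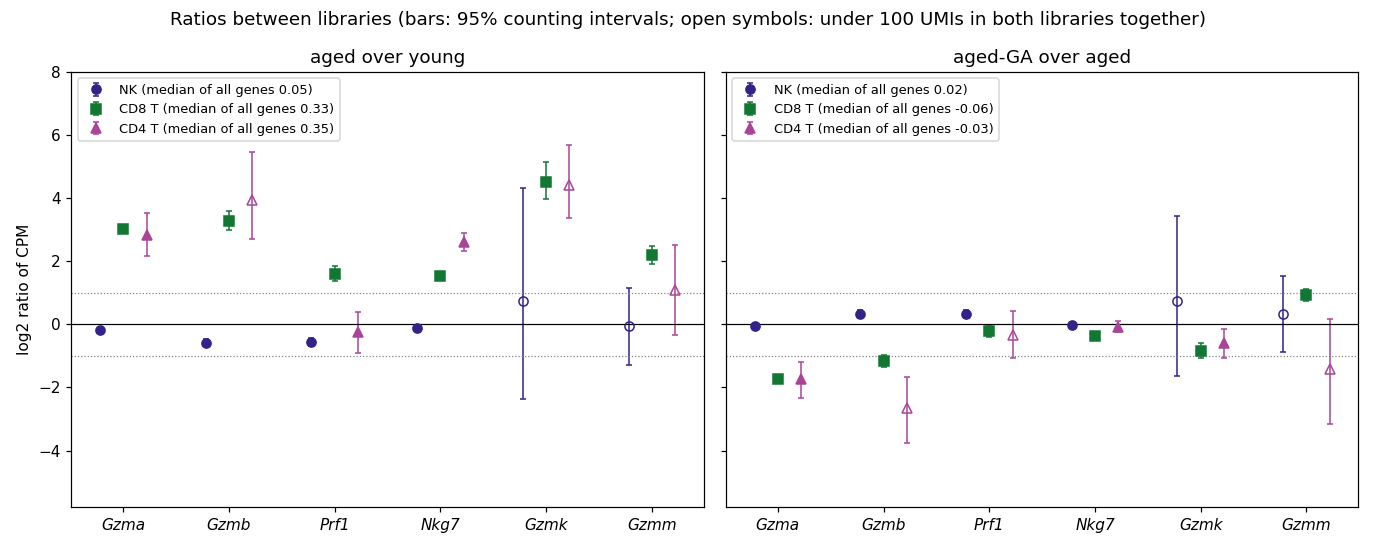
Log2 ratio of the level of each member between libraries, aged over young and aged-GA over aged, in gated classes, with bars for the 95% counting interval, open symbols for members under 100 UMIs in both libraries together, and dashed lines at 2-fold. In CD8 T cells all 6 members lie above 1 for aged over young, while in NK cells the 4 members with enough UMIs lie between -0.58 and -0.11.

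Few CD8 T cells held most of the Gzma. Cells with 10 or more Gzma UMIs numbered 13 of 1997 in young, 61 of 853 in aged and 51 of 1676 in aged-GA. They held 84.1%, 91.9% and 87.5% of the Gzma UMIs of the class. In young, 1 cell with 193 Gzma UMIs held 25.4% of them, and without the cell with the most Gzma in each library the log2 ratio of Gzma for aged over young was 3.35. Gzmm was spread more thinly: 80, 133 and 451 CD8 T cells had it, with a mean of 1.98, 2.14 and 2.99 UMIs in such a cell. For Gzma that mean was 10.4, 17.6 and 11.3.

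Several NK marker transcripts stood in the same order of libraries as Gzma in CD8 T cells. The 8 NK markers outside the gates, all of them detected, summed to 828, 1407 and 1344 CPM in CD8 T cells of young, aged and aged-GA. In young they ran from 3.72 CPM for Tyrobp to 294 CPM for Txk. Of the 8, 6 were lowest in young and highest in aged, while Txk, at 294, 398 and 437 CPM, and Klrk1, at 10.9, 65.1 and 91.4 CPM, were highest in aged-GA. From aged to aged-GA, Txk and Klrk1 were thus higher and the other 6 lower. The sum went from 1407 to 1344 CPM and Gzma from 493 to 147 CPM. Eomes, which is among the 6, is also counted below among the regulators in CD8 T cells. How far CD8 T cells make these transcripts themselves was not tested. Among the 6, Tyrobp, a signalling adaptor of NK and myeloid cells, was at 3.72, 44.0 and 18.8 CPM in CD8 T cells against 2737, 2629 and 2609.7 CPM in NK cells, and Fcer1g, a related adaptor, at 7.44, 58.2 and 25.4 CPM in CD8 T cells. CD8 T cells with 2 or more UMIs of the gate's NK genes numbered 45, 133 and 269. Among CD8 T cells with no UMI of those genes (1901, 655 and 1245 cells), Gzma was at 17.5 (young), 218 (aged) and 75 (aged-GA) CPM, with a log2 ratio of 3.64 (95% interval 3.42 to 3.87) for aged over young and -1.54 (95% interval -1.69 to -1.39) for aged-GA over aged. Gzmm there was at 9.24 (young), 31.3 (aged) and 68.8 (aged-GA) CPM. Its log2 ratio was 1.13 (95% interval 0.85 to 1.43) for aged-GA over aged. Leaving out only the cells with 2 or more such UMIs, the log2 ratio of Gzma was 2.39 for aged over young and -1.58 for aged-GA over aged, and that of Gzmm for aged-GA over aged was 0.98. In the whole class Gzma stood at 3.01 and -1.74 and Gzmm at 0.93. Each removal rests on the 7 NK genes of the gate, so that the remaining cells may still carry other NK transcripts. How far transcripts of NK cells entered the other CD8 T cells was not tested. The myeloid marker list, 5 of 6 genes detected in young and 6 of 6 in the other libraries, summed to 396, 771 and 839 CPM in CD8 T cells. Its highest gene alone stood at 275, 603 and 683 CPM. Of the 6 genes, 4 (Lst1, Csf3r, Itgam and Ccr2) stood in the same order of libraries as Gzma. The part of this list in the result was not tested.

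CD8 T cells were next divided by Ccl5, a chemokine of memory and effector CD8 T cells, at 2 UMIs. Cells with Ccl5 made up 15.4%, 59.8% and 64.2% of CD8 T cells in young, aged and aged-GA. After thinning to 1000 UMIs, at least 1 Ccl5 UMI was found in 12.7%, 59.1% and 61.7% of CD8 T cells, against 1.25%, 6.45% and 8.96% of B cells under 2 NK marker UMIs. The division itself used unthinned UMIs. Median depth with and without Ccl5 was 7599 and 5713 UMIs in young, 5402 and 5747 in aged, and 7622.5 and 6581.5 in aged-GA. How far depth or free Ccl5 RNA decided which cells passed was not tested. The CD8 T cells with 2 or more Ccl5 UMIs held 94.6%, 98.6% and 98.8% of the Gzma UMIs of the class. Among these cells Gzma was at 304 (young), 838 (aged) and 216 (aged-GA) CPM, Gzmk at 11.8 (young), 89.2 (aged) and 42.8 (aged-GA) CPM, and Gzmm at 61.3 (young), 96.6 (aged) and 165 (aged-GA) CPM. Aged over young, the log2 ratio within them was 1.46 for Gzma, 2.13 for Gzmb, 2.92 for Gzmk, 0.66 for Gzmm, 1.54 for Prf1 and 1.19 for Nkg7. For 5 of the 6 members this was at least 2-fold higher and for 0 lower, beside 7.89% and 0.689% of all genes, and for Gzmm it was 1.58-fold. In the whole class the ratio was larger for each member, where the share of cells with Ccl5 also differs between the libraries. Aged-GA over aged, where that share was 64.2% against 59.8%, the ratio within cells with Ccl5 was -1.95 (95% interval -2.04 to -1.86) for Gzma, -1.36 for Gzmb, -1.06 for Gzmk, 0.77 for Gzmm, -0.33 for Prf1 and -0.48 for Nkg7. Here 3 members were at least 2-fold lower and 0 higher, beside 0.641% and 0.153% of all genes. Aged-GA over young, 3 of the 6 members remained at least 2-fold higher within cells with Ccl5, Gzmk at 1.86, Gzmm at 1.43 and Prf1 at 1.21, while Gzmb was at 0.77 and Nkg7 at 0.71. Gzma turned direction there, at -0.49 (95% interval -0.62 to -0.36) against 1.26 in the whole class. In young, 1 cell held 193 of the 719 Gzma UMIs of the cells with Ccl5, or 26.8%, against 5.12% for the top cell of aged-GA. The interval does not cover such clustering, and the part of that cell in this turn was not tested. The turn is therefore not read as a difference between the libraries. Of all genes 5.71% were at least 2-fold higher and 0.507% lower, against 0 members lower.

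CD8 T cells without Ccl5 held little of any granzyme, on 0 to 41 UMIs of each in a library. Gzma there was at 4.10 (young), 16.1 (aged) and 5.31 (aged-GA) CPM. Gzmk was at 0 (young), 0.489 (aged) and 1.52 (aged-GA) CPM, where the 0 of young allows up to 0.300 CPM, close to the 0 to 0.561 CPM of B cells. Gzmb was at 3.10 (95% interval 2.11 to 4.40) CPM in young and 4.40 (95% interval 2.01 to 8.35) in aged, against 1.05 (95% interval 0.479 to 1.99) and 1.33 (95% interval 0.802 to 2.08) in B cells, and at 0.758 against 1.48 CPM in aged-GA. Gzmm was at 5.38 (95% interval 2.68 to 9.62) CPM in aged against 0.771 (95% interval 0.385 to 1.38) in B cells, at 1.30 against 0.465 in young and at 2.27 against 1.91 in aged-GA. Gzmb in young and Gzmm in aged thus stood above B cells with no overlap of intervals. Prf1 was at 18.5 (young), 17.6 (aged) and 10.6 (aged-GA) CPM, and Nkg7 at 385 (young), 610.3 (aged) and 417 (aged-GA) CPM, each above B cells in each library. In young, the cells with Ccl5 held no more than 34.2% of the Nkg7 UMIs and 30.5% of the Prf1 UMIs of CD8 T cells, so that most of both lay in cells without it.

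The share of cells with a UMI, each cell thinned to 1000 UMIs, stood in the same order of libraries as the level for Gzma, Gzmm and Nkg7 in CD8 T cells. Among them, a Gzma UMI was present in 1.35% (95% exact binomial interval 0.893 to 1.96) in young, 11.1% (9.10 to 13.4) in aged and 5.02% (4.02 to 6.18) in aged-GA. Gzmm was present in 0.951%, 4.10% and 7.89%, highest in aged-GA, and Nkg7 in 31.8%, 66.7% and 56.2%. B cells under 2 NK marker UMIs had Gzma in 0.489%, 0.806% and 0.934% and Nkg7 in 0.356%, 0.907% and 1.01% of cells, at a median of 3387, 3058 and 3750 UMIs before thinning, against 5875, 5649 and 7168.5 for CD8 T cells. Without thinning, Gzma was in 3.66%, 16.1% and 9.37% of CD8 T cells. With thinning, NK cells had Gzma in 97.5%, 92.9% and 98.1%, Gzmb in 66.6%, 54.9% and 59.5%, and Prf1 in 67.2%, 59.2% and 61.8%. For Gzma this order differs from that of the NK levels, which were lowest in aged-GA. Within CD8 T cells with Ccl5 the Gzma shares of young and aged-GA, 7.14% and 7.45%, had overlapping intervals. The level was higher in young, where 1 cell held 26.8% of the Gzma UMIs of these cells.

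Counted by intervals of these shares that did not overlap, 6 members stood apart between aged and young in CD8 T cells, where 17.4% of all genes with a UMI in at least 10 cells did. In CD4 T cells it was 4 members against 14.3%, and in NK cells 0 against 3.57%. Between aged-GA and aged, 5 members stood apart in CD8 T cells (all genes 2.93%), 1 in CD4 T cells (1.29%) and 0 in NK cells (0.615%). Between aged-GA and young, the counts were 6 in CD8 T cells (15.2%), 2 in CD4 T cells (13.1%) and 0 in NK cells (2.71%).

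**Figure D4:**
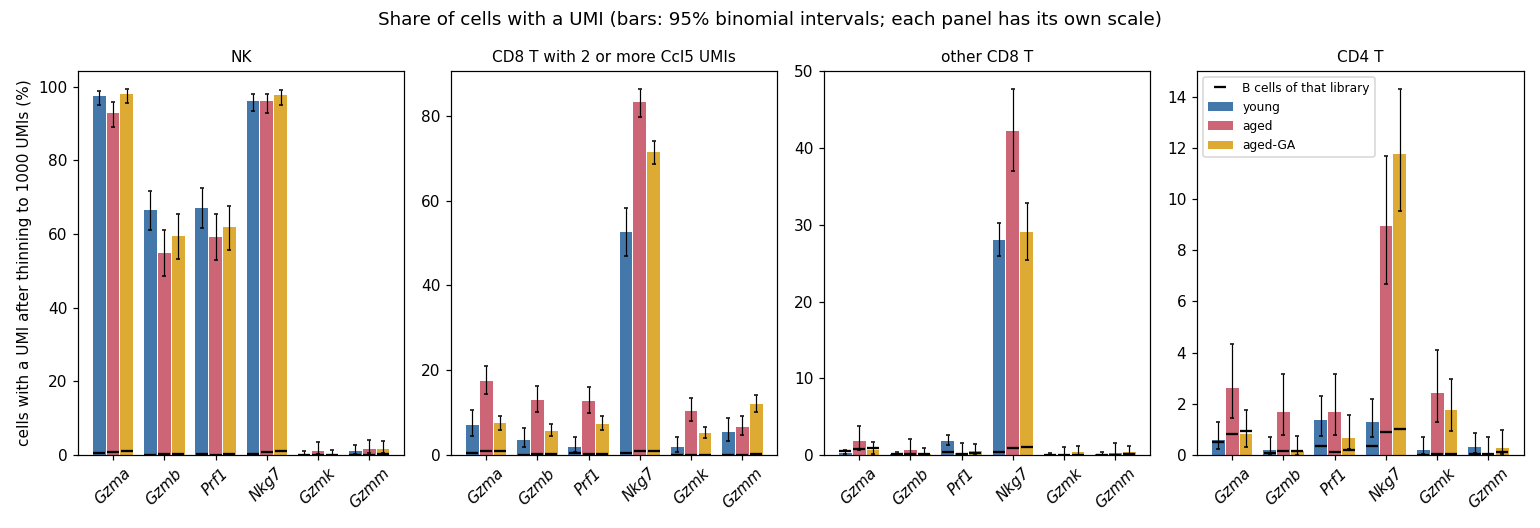
Percent of cells with at least 1 UMI of each member, each cell thinned to 1000 UMIs, in NK cells, CD8 T cells with Ccl5, other CD8 T cells and CD4 T cells of the 3 libraries, with 95% exact binomial intervals and, as black dashes, the share in B cells under 2 NK marker UMIs. Among CD8 T cells with Ccl5, Gzma is in 7.14, 17.5 and 7.45% and Gzmm in 5.52, 6.67 and 12.1% of young, aged and aged-GA cells.

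In CD8 T cells with Ccl5 of aged and aged-GA, Gzma, Gzmb and Gzmk shared a cell more often than the product of their shares. Gzmm was found with them about as often as that product. After thinning to 2000 UMIs, Gzma and Gzmb were in the same cell in 56 of 503 aged cells, 2.82 times the product, and in 45 of 1072 aged-GA cells, 5.52 times. Such a multiple can be larger where the members are rarer, so it does not rank the libraries. Of the cells with Gzma, 57.7% in aged, 48.9% in aged-GA and 33.3% in young held Gzmb. For Gzma and Gzmk the multiple of the product was 2.19 and 3.80, and for Gzmb and Gzmk 2.0 and 3.55, in aged and aged-GA. With Gzmm it was 1.15 and 0.889 for Gzma, 0.853 and 0.956 for Gzmb, and 1.06 and 0.766 for Gzmk. Prf1 went with Gzmb, at 1.90 and 2.0, and with Gzmk, at 1.65 and 2.42. With Gzmm, Prf1 was at 1.16 and 0.886. In NK cells nearly every cell held Gzma, and Gzma with Gzmb was at 1.01, 1.05 and 1.00. In young, where 307 cells were counted, Gzma with Gzmb was at 5.69 on 8 cells and Gzma with Gzmk at 6.40 on 4. Gzmm with Gzma was at 0.882 on 2 cells, with Gzmb at 1.76 on 3 and with Gzmk at 2.65 on 2. These are descriptions of cells of single libraries, without a test. CD8 T cells with 2 or more NK marker UMIs were not left out of the pairs. In the whole CD8 T class they held 1283 of 2408 Gzma UMIs in aged and 871 of 1779 in aged-GA. Droplets with 1 CD8 T cell and 1 NK cell cannot be told apart from single cells here, and their part was not tested.

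**Figure D5:**
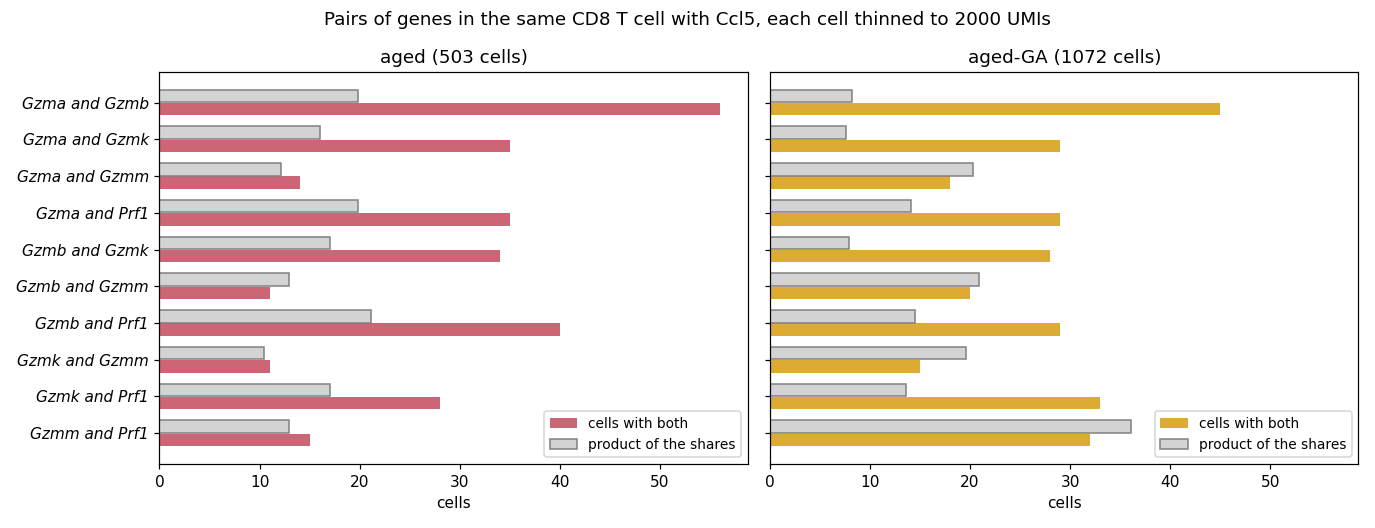
Number of CD8 T cells with Ccl5 that held UMIs of both members of a pair (observed) beside the product of the 2 shares times the number of cells, for aged (503 cells) and aged-GA (1072 cells), each cell thinned to 2000 UMIs. Gzma and Gzmb were together in 56 and 45 cells, above the product in both libraries, while Gzma and Gzmm lie near it.

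The make-up of the granule transcripts differed between the NK and CD8 T classes, each taken as a whole. For each 100 Gzma UMIs, NK cells held 10.8, 8.13 and 10.7 of Gzmb and 7.91, 6.09 and 7.97 of Prf1. CD8 T cells held 14.5, 17.6 and 26.1 of Gzmb for each 100 of Gzma, 35, 13.2 and 38.4 of Prf1, and 20.8, 11.8 and 75.8 of Gzmm. In NK cells that number was at most 0.117 for Gzmm. Nkg7 exceeded Gzma in CD8 T cells of each library, at 771, 279.9 and 728 UMIs for each 100 of Gzma, and stood below it in NK cells, at 27.7, 28.9 and 29.7. Among CD8 T cells with Ccl5 alone, Nkg7 was at 279, 231 and 643 for each 100 of Gzma.

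T cells with 2 or more UMIs of Ncr1 and Klrb1c lay between the NK and CD8 T classes in Gzma, Gzmb and Prf1. They numbered 57, 57 and 60. Gzma was at 4626 (young), 3169.8 (aged) and 2067 (aged-GA) CPM, lower in aged than in young and lower again in aged-GA. Nkg7 was at 1668 (young), 1762 (aged) and 2004 (aged-GA) CPM. T cells that carry NK receptors and droplets with 1 T cell and 1 NK cell cannot be told apart here.

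CD4 T cells had a lower level of each member than CD8 T cells in each library. For Gzmk the intervals of these classes overlapped in young and in aged-GA. In aged-GA its interval was 17.9 to 27.6 CPM in CD4 T cells and 26.3 to 32.5 CPM in CD8 T cells. Gzma was at 4.93 (young), 34.7 (aged) and 10.4 (aged-GA) CPM. The young interval, 3.19 to 7.27 CPM, overlapped that of B cells, 4.92 to 8.46 CPM around 6.51. In those B cells 1 cell held 37.5% of the Gzma UMIs. Nkg7 was at 28.2 (young), 172 (aged) and 164 (aged-GA) CPM and Gzmk at 1.58 (young), 33.9 (aged) and 22.3 (aged-GA) CPM, the latter resting on 8, 81 and 86 UMIs. Gzmb was at 1.18 (young), 18 (aged) and 2.86 (aged-GA) CPM, on 6, 43 and 11 UMIs. Prf1 was at 14.4 (young), 12.1 (aged) and 9.61 (aged-GA) CPM and was highest in young, with overlapping intervals of neighbours, and Gzmm stood between 1.56 and 4.18 CPM.

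Of the 3 members with at least 100 UMIs over aged and young CD4 T cells, 2 were at least 2-fold higher in aged, Gzma at 2.82 (95% interval 2.16 to 3.52) and Nkg7 at 2.61 (95% interval 2.33 to 2.89), and 0 were lower. Over all genes 10% were 2-fold higher and 1.08% lower, with a median log2 ratio of 0.35. Aged-GA over aged, 1 member was 2-fold lower, Gzma at -1.74 (95% interval -2.32 to -1.18), and 0 were higher, against 0.151% and 0.067% of all genes. Aged-GA over young, 1 was 2-fold higher, Nkg7 at 2.54 (95% interval 2.28 to 2.81), and 0 were lower, against 8.02% and 0.802%. The Gzma counts among CD4 T cells rest on 25, 83 and 40 UMIs, and without the cell with the most Gzma in each library 0 members in place of 1 were counted as 2-fold lower in aged-GA than in aged, and 1 in place of 2 as 2-fold higher in aged than in young. Trdc, a gene of gamma delta T cells, had 2 or more UMIs in 75, 32 and 65 T cells. Those of the CD8, CD4 and NK-marker gates were not counted. Gzma in this set was at 69.4 (young), 679 (aged) and 29.7 (aged-GA) CPM, on 28, 102 and 11 UMIs. How these UMIs were spread over the cells was not tested.

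Over all kept cells, where the number of NK and CD8 T cells and the level in each cannot be told apart, Gzmk was the 1 member at least 2-fold higher in aged than in young, at a log2 ratio of 3.31 (95% interval 2.91 to 3.74). Its level was 1.14 (young), 11.3 (aged) and 9.89 (aged-GA) CPM. Over all genes 19.7% were 2-fold higher and 3.12% lower, and 0 members were lower. Gzmm was the 1 member 2-fold higher in aged-GA than in aged, at 1.67 (95% interval 1.52 to 1.82), with 0 lower, against 0.443% and 6.77% of all genes. Gzmk and Gzmm were the 2 members at least 2-fold higher in aged-GA than in young, with 0 lower, against 11.9% and 2.05%. The medians of all genes were 0.36, -0.10 and 0.26 in these comparisons.

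Of 49 genes around the granule pathway, in 7 lists of related roles, most that differed in CD8 T cells were effectors and regulators. Aged over young, 16 of the 40 with at least 100 UMIs were 2-fold higher and 1 lower, with a median log2 ratio of 0.75, beside the 8.1% and 0.33 over all genes. Among 8 other effectors, 7 were higher and 1 lower: the chemokine Ccl4 stood at 5.12 (95% interval 4.77 to 5.48), Ifng, the cytokine interferon gamma, at 3.14 (95% interval 2.59 to 3.73) and Fasl, the death ligand, at 2.45 (95% interval 2.14 to 2.77), while the cytokine Tnf was lower, at -1.94 (95% interval -2.58 to -1.36). Ccl5, which divided the CD8 T cells above, was at 3.26 (95% interval 3.23 to 3.29). Of 11 transcriptional regulators, 6 were higher and 0 lower: Zeb2 at 3.97 (95% interval 3.52 to 4.44), Tbx21, which encodes T-bet, at 3.02 (95% interval 2.35 to 3.75), Eomes at 2.70 (95% interval 2.43 to 2.97), Bhlhe40 at 2.10 (95% interval 1.78 to 2.42), Hopx at 1.75 (95% interval 1.62 to 1.87) and Prdm1, which encodes Blimp-1, at 1.22 (95% interval 0.71 to 1.72).

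Of the 4 serpin inhibitors tested, 2 were at least 2-fold higher and 0 lower in aged: Serpinb9, an inhibitor of granzyme B, was at 8.57 (young), 28.3 (aged) and 19.7 (aged-GA) CPM in CD8 T cells, and Serpina3g, an inhibitor of cathepsins, at 2.02, 22.1 and 21.3 CPM. Of the 7 exocytosis genes tested only Unc13d, which primes granules for release, passed 2-fold, at 1.02 (95% interval 0.71 to 1.34). None of the 8 granule and activation genes did, among them Srgn, which encodes the granule proteoglycan serglycin, and Ctsd, a lysosomal protease gene, which were the most abundant of that list in NK cells, at 872 and 605 CPM in aged. Of the granzyme targets Gsdmd, Gsdme and Bid, 2 could be tested and 0 passed.

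In NK cells the same lists gave 2 genes 2-fold higher in aged than in young and 0 lower, of 30 with enough UMIs, beside the 2.17% and 0.916% of all genes. These were the chemokine Ccl3, at 148 CPM in young and 452 in aged, and Unc13d, at 30.5 and 73.7 CPM. Aged-GA over aged, no gene of 29 passed 2-fold in NK cells, where 0.102% of all genes were higher and 0.545% lower. In CD8 T cells 3 of 39 were lower and 0 higher, beside 0.506% and 0.0864% of all genes. The 3 were Ccl3 at -2.30 (95% interval -2.57 to -2.03), Ccl4 at -1.96 (95% interval -2.11 to -1.81) and Zeb2 at -1.01 (95% interval -1.23 to -0.78). Aged-GA over young, Zeb2 and Ccl3 were the genes of these lists past 2-fold in NK cells, both higher, of 29. All genes there were 1.35% higher and 0.71% lower. Cst7, which encodes an inhibitor of granule cathepsins, joined in CD8 T cells, at 1.32. There 16 of 41 were higher and 1 lower, beside 6.07% and 0.984% of all genes. The other granzyme genes, Gzmc, Gzmd, Gzme, Gzmf, Gzmg and Gzmn, stood at or below 2.86 CPM in NK cells of each library. Reads that Gzmb shares with these near relatives may have been dropped in counting, which was not tested.

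Across the 10 gated classes of the 3 libraries, 30 points that share libraries and gates, some members were more alike in pattern than others. The points include the B, haemoglobin-rich, mixed and ungated classes, whose levels are not read as expression by those cells. The part of NK transcripts in those classes was not tested. Pearson's r of log2(CPM + 1) was 0.974 between Gzma and Gzmb, 0.943 between Gzmb and Prf1, and 0.912 between Prf1 and Nkg7. Gzmk and Gzmm were less like them, at 0.119 and 0.385 with Gzma. Each was most like Nkg7 among the members, at 0.522 and 0.678, and they were at 0.513 with each other. Of 11240 genes compared, those most like Gzma were Gzmb and the NK receptor genes Klra8 and Klrb1c, both of which the NK gate used. Those most like Gzmb were Gzma, the NK receptor gene Klre1, also of the NK gate, and Serpinb9. Serpinb9 and Serpinb6b, a related serpin gene, led for Prf1, at 0.976 and 0.956, before Gzmb, and Ccl5, the interleukin receptor gene Il2rb and Cst7 for Nkg7, at 0.977, 0.973 and 0.968. For Gzmm they were Dmrta1, Crtam, a receptor of activated cytotoxic cells, and Cd160, at 0.883, 0.833 and 0.818, and for Gzmk the lower-count genes Kif5c, Kremen2 and Celsr1, at 0.812, 0.771 and 0.761.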

How the data were processed

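Count tables of 3 libraries (young, aged, aged-GA), 1 per group, were used as deposited. Their values are UMI counts per gene and barcode that the authors made with Cell Ranger, version 5.0.0 per the file headers, on mm10, and were neither normalized nor filtered beyond cell calling. Totals were 58894294, 82260961 and 98155671 UMIs over 10842, 16038 and 17332 barcodes. After the study's methods, barcodes were kept from 200 genes up to 90% of the highest gene number in the library, with no more than 7.5% mitochondrial UMIs, which left 8851, 10238 and 12648 cells. The study states other cell numbers. With at least 500 genes per cell, an alternative tried, 8484, 9966 and 11566 cells were left, of which the aged-GA number is the one the study states and the others are not.

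Cells were gated on raw UMIs of marker genes, in order: haemoglobin-rich (10% or more haemoglobin UMIs), mixed (2 or more of T, B and myeloid), T (2 UMIs of Cd3d, Cd3e and Cd3g together; NK-marker T with 2 of Ncr1 and Klrb1c; CD8 or CD4 by 1 UMI of Cd8a or Cd8b1, or of Cd4, and none of the other), B (3 UMIs of a B cell marker set that includes Cd79a, Cd79b and Ms4a1), myeloid (0.5% of UMIs in Lyz2, Csf1r, Cst3, S100a8 and S100a9) and NK (2 UMIs of Ncr1, Klrb1c, Klra8, Klra4, Klra9, Klre1 and Klri2, no Cd8b1). The mixed gate removed cells with markers of more than 1 lineage, and no doublet caller was run.

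UMIs of a class were summed and given as CPM with exact Poisson intervals, ratios with exact conditional binomial intervals, and shares of cells with exact binomial intervals, all at 95%. The background for the members was every gene that reached 100 UMIs in 2 libraries together. On counts simulated with counting error alone, 96.0% of intervals for 7702 genes of CD8 T cells (aged over young) held the true ratio. Since the intervals assume that same error, this checks only the calculation. It does not cover UMIs that cluster in few cells or differences between mice. The named genes were the members, the 2 most abundant genes of each list in NK cells, any list gene past 2-fold in NK or CD8 T cells, and the 3 genes most like each member. Where a count or marker outside this rule is named, it was chosen after its values were seen. The members, lists, motifs and gates were chosen with earlier results of these data known. Alternatives changed gates, filters, denominators, scaling and thinning (seed 7), and 3 were added after seeing the data: leaving out T cells with 2 NK marker UMIs, leaving out the cell with the most UMIs of a member, and dividing B and other cells by NK marker UMIs. Python 3.11.15, numpy 2.4.6, scipy 1.17.1, pandas 2.3.3 and matplotlib 3.10.9 were used.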

Additional observations from a re-analysis of the deposited data

Results flagged for a closer look

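The log2 ratio of aged over young went one way in NK cells and the other in CD8 T cells for 4 members, with 1 library in each group, so the difference between the classes was not tested. It was -0.17 in NK cells and 3.01 in CD8 T cells for Gzma, -0.58 and 3.28 for Gzmb, -0.55 and 1.60 for Prf1, and -0.11 and 1.54 for Nkg7. For aged-GA over aged, which shares the aged library, Gzmb was at 0.32 in NK cells and -1.17 in CD8 T cells, and Prf1 at 0.32 and -0.20, which was not tested either.

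Barcodes left out by the filters on cells also held members, above the limit that a count of 0 allows. Gzma was at 45.2, 10.3 and 19.2 CPM in the left-out barcodes of young, aged and aged-GA, and Nkg7 at 45.7, 9.62 and 32.7 CPM. Gzmb was at 6.39, 0.913 and 2.87 CPM, Prf1 at 7.52, 0.913 and 2.96 CPM, and Gzmm at 0.846, 0.140 and 2.02 CPM. For Gzmk the aged barcodes gave 0.491 CPM and the aged-GA ones 2.33 CPM.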

How the results depend on the processing

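In CD8 T cells the log2 ratio of aged over young stayed between 2.39 and 3.81 for Gzma, 2.89 and 3.43 for Gzmb, 4.19 and 5.0 for Gzmk, and 1.86 and 2.81 for Gzmm over the 11 settings run. For aged-GA over aged it stayed between -1.81 and -1.48 for Gzma, -1.21 and -1.06 for Gzmb, and 0.81 and 1.00 for Gzmm. The lowest Gzma ratio of aged over young, 2.39, came without T cells with 2 NK marker UMIs and the highest, 3.81, without the 5% of cells with the most genes. In CD8 T cells 6 members stayed at least 2-fold higher in aged than in young under each setting but thinning to 1000 UMIs, where fewer members reached 100 UMIs and 4 were counted. Aged-GA over young, 4 were counted with the median log2 ratio of all genes set to 0, and 5 with thinning and without T cells with 2 NK marker UMIs, in place of 6. With all deposited barcodes and no filter, 3 members had more UMIs in NK cells than in any other class in each library, as with the filter. Of the ratios of single members under the alternatives, 11 changed sign, 9 of them where the interval of the reported ratio held 0, among them Gzmm in NK and CD4 T cells and Nkg7 in CD4 T cells. The other 2 were both Nkg7. Nkg7 over all kept cells was at -0.20 for aged over young with the median log2 ratio of all genes set to 0, and at -0.026 for aged-GA over aged with each cell thinned to 1000 UMIs. In CD4 T cells, the count of members 2-fold higher in aged than in young was 1 in place of 2 with stricter gates, without the 5% of cells with the most genes, with cells thinned to 1000 UMIs and without the cell with the most UMIs of the member. The count 2-fold lower in aged-GA than in aged was 0 in place of 1 with stricter gates, with thinning and without that cell. Over all kept cells, 2 members in place of 1 were 2-fold higher in aged than in young with thinning. Of the counts by shares of cells with a UMI, NK cells gave 1 in place of 0 without thinning, both for aged and young and for aged-GA and aged, and 1 at 500 UMIs for aged-GA and young. CD8 T cells gave 3 in place of 5 at 500 UMIs for aged-GA and aged. CD4 T cells at 500 UMIs gave 2 in place of 4 for aged and young and 1 in place of 2 for aged-GA and young, and for aged-GA and aged gave 0 in place of 1 at 500 and 2000 UMIs and without thinning. The causes were not tested. No paired analysis was possible because each group is 1 library. For the same reason no replicate could be left out, and members with few UMIs, such as Gzmk and Gzmm in NK cells, are limited by depth.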
